A study of Mus musculus with 9 samples.

Results

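The 64 genes described here carry a Gpr number as their symbol, the placeholder name given to G protein-coupled receptors before a ligand was assigned. They were taken from 22180 genes with an array row of exactly 1 symbol, by the form of the name alone (Gpr, a number and at most 1 letter), and each gene was represented by its row of highest mean over all arrays. The name therefore joins receptors of unlike function, as well as 6 membrane proteins that are not typical receptors of this class. The 64 genes had 69 such rows, since Gpr25, Gpr155, Gpr158 and Gpr171 had more than 1. Another 5 Gpr names (Gpr3, Gpr21, Gpr39, Gpr89 and Gpr137) appeared only on rows shared with other genes and were not analysed here.

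RNA of γδ T cells of C57BL/6 mice was measured on Affymetrix Mouse Gene 2.0 ST arrays, with 3 arrays in each of 3 subsets. Intraepithelial lymphocytes (IELs) came from the intestinal epithelium, and the Naive-like subset and the Type-1 subset were both taken from peripheral lymph nodes, so that only Type-1 against Naive-like cells is a comparison within 1 tissue, and subset and tissue cannot be told apart in the comparisons with IELs. The labels give no genotype other than the strain background, no treatment and no age, and they do not state whether the RNA on an array is that of a single mouse or of pooled mice, so the p-values here reflect only the spread between these arrays. Apart from a list of antibodies, the sources used here do not state the sorting gates. The design implies 3 pairwise comparisons, which share arrays with each other.

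All values are log2 RMA values, in which 1 unit is a doubling of signal, and they are not comparable between genes because each gene has its own probes. Each difference is given with its standard error (SE) and the adjusted p of limma's moderated test, Benjamini-Hochberg adjusted over the 22180 genes, with 0.05 as the threshold. The T cell markers Cd3d, Cd3e, Cd3g, Lat and Zap70, the 5 of 12 listed that had a row of 1 symbol, had subset means from 7.88 (Zap70 in Type-1 cells) to 12.0 (Cd3g in IELs); the γδ receptor constant chains were not analysed here. Among 3 measured αβ T cell markers, Cd4 had means from 3.49 to 3.75 in the 3 subsets, while the mean of Cd8b1, a coreceptor chain, was 7.54 in IELs, 10.35 in Naive-like and 8.21 in Type-1 cells. Cd8b1 fell by 2.81 in IELs against Naive-like cells (limma adjusted p = 0.0031), and the costimulatory receptor gene Cd28, the third marker, fell by 1.90 against Naive-like cells (limma adjusted p = 0.00064) and fell by 1.83 against Type-1 cells (limma adjusted p = 0.00098).

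G protein-coupled receptors sense lipids, peptides, protons and metabolites outside the cell and signal through heterotrimeric G proteins, after which receptor kinases and arrestins switch them off. In lymphocytes, receptors of this class set where cells migrate and stay. Several Gpr-named receptors have since been paired with ligands that matter to T cells, among them lysophospholipids, oxysterols and protons. Gpr55 and Gpr18 are known in mice from intestinal intraepithelial lymphocytes, where Gpr55 restrains migration and Gpr18 is needed for normal numbers of some of these cells.

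Of the 64 genes, 8 differed between subsets and 56 did not pass in any comparison. Gpr34, Gpr55, Gpr160, Gpr52, Gpr171 and Gpr18 exceeded their Naive-like values in IELs, and Gpr174 was lower. The same 6 genes except Gpr18 were also higher in IELs than in Type-1 cells, whereas Gpr174 and Gpr183 were lower in IELs. Gpr183 was the 1 gene that differed within the lymph node, being higher in Type-1 than in Naive-like cells. The plot of the 8 genes shows the value on every array.

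**Figure D1:**
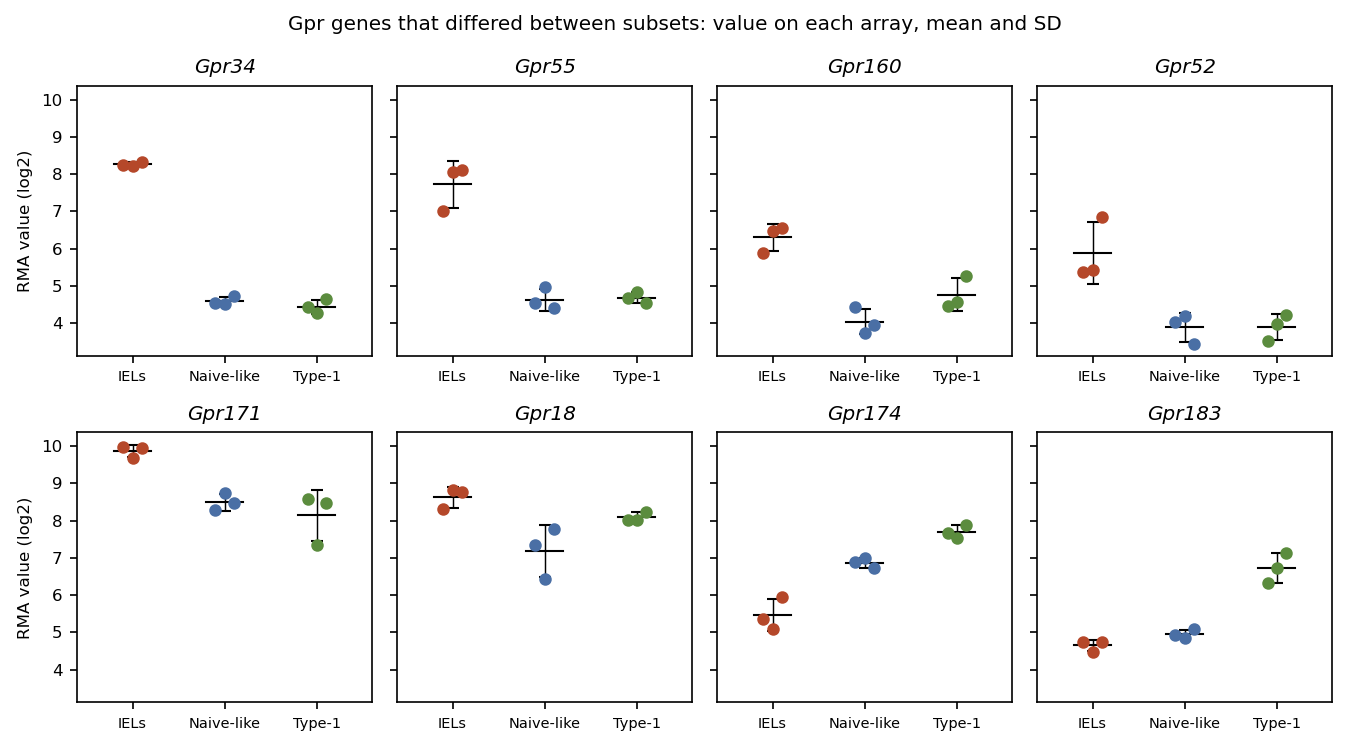
Log2 RMA value (vertical axis) of the 8 Gpr genes that passed the test, by subset; points are arrays, the line is the mean and the bars are 1 SD (n = 3). Gpr34 lies between 8.22 and 8.33 in IELs and at or below 4.72 in both lymph node subsets, while Gpr174 and Gpr183 are highest in Type-1 cells.

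Against Naive-like cells, 7 genes passed in IELs (6 higher, 1 lower), which is 10.9% of the 64, beside 5.19% of all genes tested (3.57% higher and 1.62% lower). Against Type-1 cells, 7 passed in IELs (5 higher, 2 lower), again 10.9%, beside 5.14% of all genes (3.73% higher and 1.41% lower). In Type-1 against Naive-like cells 1 gene passed, higher in Type-1 cells, which is 1.56% beside 0.284% of all genes (0.212% higher and 0.0721% lower). The moderated F test over the 3 subsets called 8 genes, beside 5.41% of all genes.

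Whatever the test found, the arrays of IELs and Naive-like cells did not overlap for 16 of the 64 genes, 25.0% beside 20.1% of all genes. For Type-1 against Naive-like cells this held for 9 genes, 14.1% beside 11.4%, and for IELs against Type-1 cells for 17 genes, 26.6% beside 19.8%. The median difference over the 64 genes was -0.07 in IELs against Naive-like cells, 0.06 in Type-1 against Naive-like cells and -0.14 in IELs against Type-1 cells, beside -0.01, 0.03 and -0.03 over all genes.

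**Figure D2:**
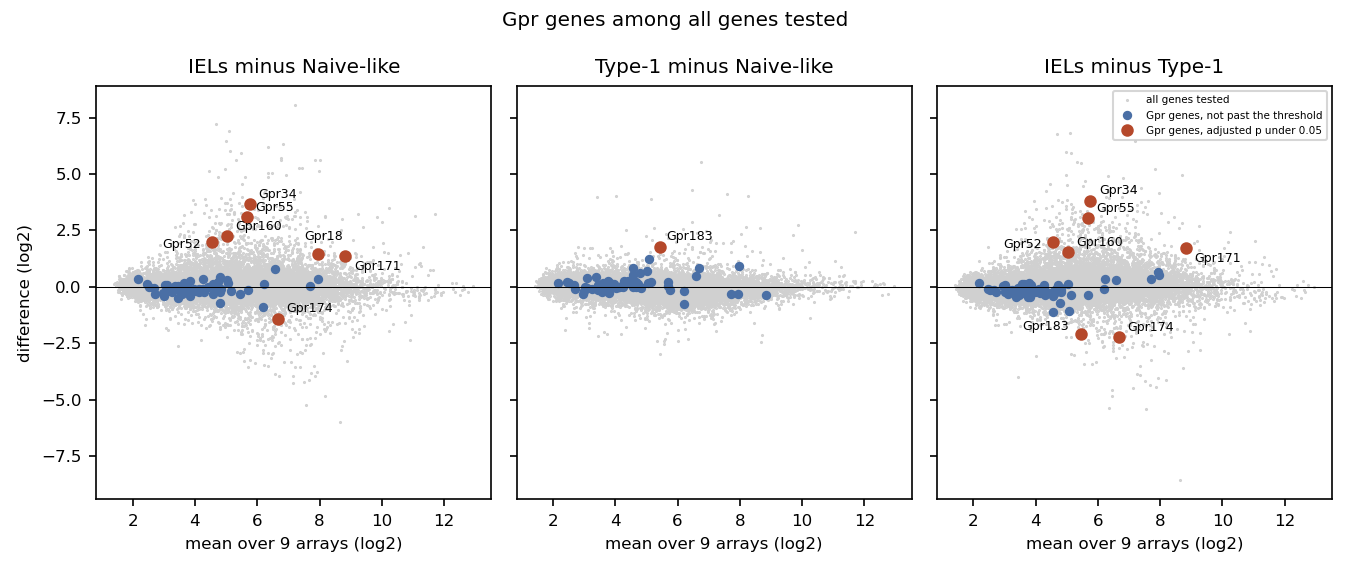
Difference between subsets (vertical axis, log2) against the mean over 9 arrays (horizontal axis, log2) for all 22180 genes in grey, with the 64 Gpr genes in blue and those past the threshold in red, 1 panel per comparison. Gpr34 and Gpr55 stand highest among the Gpr genes in both comparisons with IELs, and most other Gpr genes lie near the zero line.

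Gpr34 and Gpr174, a pair of X-linked receptors for the lipid lysophosphatidylserine, differed in opposite directions between IELs and the lymph node subsets. Gpr34 read 8.23, 8.22 and 8.33 on the 3 IEL arrays, 4.53, 4.51 and 4.72 on the Naive-like arrays and 4.43, 4.26 and 4.63 on the Type-1 arrays. Its IEL values lay far above all lymph node values, and the lymph node subsets overlapped. Gpr34 rose in IELs by 3.68 ± 0.18 (SE) against Naive-like cells (limma adjusted p = 2.6e-07) and by 3.82 ± 0.18 against Type-1 cells (limma adjusted p = 1.9e-07). Between Type-1 and Naive-like cells its difference was -0.14, with a 95% interval from -0.54 to 0.25. In bulk RNA of this kind, fewer cells that express a gene and less RNA per cell cannot be told apart.

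Gpr174, known from mouse T cells as a brake on their activation, read 5.36, 5.10 and 5.94 in IELs, 6.88, 6.99 and 6.72 in Naive-like cells and 7.68, 7.54 and 7.88 in Type-1 cells. The 3 subsets formed 3 separate ranges, lowest in IELs and highest in Type-1 cells. Gpr174 fell by 1.40 ± 0.23 (SE) in IELs against Naive-like cells (limma adjusted p = 0.0029) and by 2.23 ± 0.23 against Type-1 cells (limma adjusted p = 9.6e-05). The difference of 0.84 ± 0.23 between Type-1 and Naive-like cells had no overlap of arrays but did not pass (limma adjusted p = 0.34).

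Gpr55, a receptor for lysophosphatidylinositol, was the second gene with a large excess in IELs. Its values were 7.01, 8.05 and 8.12 in IELs, 4.53, 4.96 and 4.40 in Naive-like cells and 4.68, 4.84 and 4.53 in Type-1 cells. Every IEL array stood above every lymph node array, IEL replicate 1 being the lowest of the IEL arrays, and the lymph node subsets overlapped. Gpr55 rose by 3.10 ± 0.29 (SE) in IELs against Naive-like cells (limma adjusted p = 3.2e-05) and by 3.04 ± 0.29 against Type-1 cells (limma adjusted p = 4.8e-05). Type-1 and Naive-like cells differed by 0.05, with a 95% interval from -0.57 to 0.68.

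Gpr160, an orphan receptor, was higher in IELs as well and had an intermediate mean in Type-1 cells. It read 5.88, 6.46 and 6.56 in IELs, 4.42, 3.75 and 3.96 in Naive-like cells and 4.46, 4.55 and 5.26 in Type-1 cells. The 3 ranges did not overlap, although the highest Naive-like array and the lowest Type-1 array were 4.42 and 4.46. Gpr160 rose by 2.26 ± 0.28 (SE) in IELs against Naive-like cells (limma adjusted p = 0.00029) and by 1.54 ± 0.28 against Type-1 cells (limma adjusted p = 0.0054). The difference between Type-1 and Naive-like cells, 0.72 ± 0.28, did not pass (limma adjusted p = 0.65).

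The 250 bases before the annotated start of Gpr55 and Gpr160 are shown because both genes were higher in IELs and are in the RefSeq promoter table of GRCm38.p6, which holds 5 of the 8 genes that passed. The Gpr55 window is chr1:85961056-85961305 on the minus strand and the Gpr160 window chr3:30855700-30855949 on the plus strand. Capitals mark every match, on either strand, to 6 short motifs: the RUNX site TGTGGT, the AP-1 site TGANTCA, the T-box core GGTGTG, the aryl hydrocarbon receptor core GCGTG, the nuclear receptor half-site AGGTCA and the ETS core CCGGAA.
Gpr55: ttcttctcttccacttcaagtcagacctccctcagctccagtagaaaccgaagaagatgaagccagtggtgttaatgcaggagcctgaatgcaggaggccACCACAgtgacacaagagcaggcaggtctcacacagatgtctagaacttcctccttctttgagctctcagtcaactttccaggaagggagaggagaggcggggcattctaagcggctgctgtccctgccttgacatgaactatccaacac
Gpr160: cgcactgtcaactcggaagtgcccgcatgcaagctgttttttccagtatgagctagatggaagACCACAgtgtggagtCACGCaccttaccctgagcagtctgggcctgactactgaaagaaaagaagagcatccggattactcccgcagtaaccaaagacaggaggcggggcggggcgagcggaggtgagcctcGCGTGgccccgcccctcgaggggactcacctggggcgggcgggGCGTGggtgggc
The Gpr55 window holds 1 RUNX match, whose first base is 150 bases before the start. The Gpr160 window holds 1 RUNX match, 187 bases before the start, and 3 matches to the aryl hydrocarbon receptor core, 172, 55 and 12 bases before it. In windows of this length before 32851 annotated starts, the RUNX letters occur in 14.0%, the AP-1 letters in 6.75%, the T-box letters in 16.3%, the aryl hydrocarbon receptor core in 28.2%, the nuclear receptor half-site in 14.0% and the ETS core in 12.0%. These matches describe the sequence and say nothing about binding.

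Gpr18 and Gpr183 lie next to each other on chromosome 14, inside the span of the larger gene Ubac2 in the RefSeq order of genes, and their values followed different subsets. Gpr18 is an orphan receptor to which several lipid ligands have been proposed, while Gpr183 (also EBI2) senses oxysterols and guides lymphocytes within lymphoid tissue. Their windows of 250 bases before the start are chr14:121915889-121916138 on the minus strand and chr14:121965194-121965443 on the minus strand, shown with the same marking so that the neighbours can be set side by side.
Gpr18: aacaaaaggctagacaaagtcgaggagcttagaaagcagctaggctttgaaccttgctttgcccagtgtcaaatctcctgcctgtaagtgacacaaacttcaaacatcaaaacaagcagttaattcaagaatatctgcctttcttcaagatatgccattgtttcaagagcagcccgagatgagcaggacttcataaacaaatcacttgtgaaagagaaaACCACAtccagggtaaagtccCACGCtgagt
Gpr183: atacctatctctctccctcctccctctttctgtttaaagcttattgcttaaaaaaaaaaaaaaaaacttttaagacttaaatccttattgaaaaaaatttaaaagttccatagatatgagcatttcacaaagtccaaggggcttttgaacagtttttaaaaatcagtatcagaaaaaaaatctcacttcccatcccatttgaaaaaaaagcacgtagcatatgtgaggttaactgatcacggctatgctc
The Gpr18 window holds 1 RUNX match 31 bases before the start and 1 aryl hydrocarbon receptor core 10 bases before it, and the letters of the 6 motifs are not in the Gpr183 window. They are not in the window before Gpr174 either.

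Gpr18 read 8.30, 8.82 and 8.76 in IELs, 7.34, 6.43 and 7.78 in Naive-like cells and 8.02, 8.01 and 8.24 in Type-1 cells. The ranges of the 3 subsets were separate, in the order IELs, Type-1, Naive-like, but neighbouring ranges were close and the Naive-like arrays were spread over more than 1 log2 unit. Gpr18 rose by 1.45 ± 0.30 (SE) in IELs against Naive-like cells (limma adjusted p = 0.013). Neither the 0.91 ± 0.30 between Type-1 and Naive-like cells (limma adjusted p = 0.52) nor the 0.54 ± 0.30 between IELs and Type-1 cells (limma adjusted p = 0.42) passed. The call against Naive-like cells was lost without IEL replicate 2 (1.35, limma adjusted p = 0.066) and without IEL replicate 3 (1.38, limma adjusted p = 0.061).

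Gpr183 was lowest in IELs and highest in Type-1 cells. It read 4.74, 4.49 and 4.73 in IELs, 4.93, 4.86 and 5.08 in Naive-like cells and 6.33, 6.74 and 7.14 in Type-1 cells. All Type-1 arrays stood above all others by more than 1 unit, and the IEL and Naive-like ranges were separate but close. Gpr183 rose by 1.78 ± 0.22 (SE) in Type-1 against Naive-like cells (limma adjusted p = 0.0033) and fell by 2.08 ± 0.22 in IELs against Type-1 cells (limma adjusted p = 0.00012). The difference between IELs and Naive-like cells was -0.30, with a 95% interval from -0.79 to 0.18.

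Gpr171, a receptor for the neuropeptide BigLEN that is expressed on T cells, was higher in IELs than in both lymph node subsets. Its values were 9.99, 9.67 and 9.94 in IELs, 8.28, 8.74 and 8.47 in Naive-like cells and 8.58, 7.36 and 8.48 in Type-1 cells. IEL arrays lay above all others, and the Type-1 arrays were spread widely around the Naive-like ones because replicate 2 read 7.36. Gpr171 rose by 1.37 ± 0.30 (SE) in IELs against Naive-like cells (limma adjusted p = 0.016) and by 1.73 ± 0.30 against Type-1 cells (limma adjusted p = 0.004). The first of these calls was lost without IEL replicate 1 (1.31, limma adjusted p = 0.055), IEL replicate 3 (1.34, limma adjusted p = 0.067), Naive-like replicate 1 (1.27, limma adjusted p = 0.080) or Naive-like replicate 3 (1.36, limma adjusted p = 0.061). A second array row of Gpr171 had a mean of 4.58 over all arrays, and with the mean of both rows the difference against Type-1 cells was 0.90. The second row read 4.68, 4.31 and 5.40 in IELs, 4.51, 4.14 and 3.98 in Naive-like cells and 4.09, 5.41 and 4.68 in Type-1 cells. On that row the IEL arrays overlapped those of both other subsets.

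Gpr52, an orphan receptor known from striatal neurons that signals through cAMP, read 5.38, 5.41 and 6.85 in IELs, 4.02, 4.19 and 3.45 in Naive-like cells and 3.51, 3.98 and 4.20 in Type-1 cells. The IEL arrays lay above all lymph node arrays, with replicate 3 well above the other IEL arrays, and the lymph node subsets overlapped. Gpr52 rose by 1.99 ± 0.37 (SE) in IELs against Naive-like cells (limma adjusted p = 0.0061) and by 1.98 ± 0.37 against Type-1 cells (limma adjusted p = 0.0069). Without IEL replicate 3 these differences were 1.51 and 1.50 (limma adjusted p = 0.012 and 0.014).

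Because several of the 8 genes lie inside or beside larger genes, the values of their neighbours in the RefSeq gene order were examined, a set chosen after the values of the Gpr genes were seen. Rabgap1l, whose span holds Gpr52, read 7.31, 8.0 and 8.91 in IELs, 6.65, 7.21 and 7.06 in Naive-like cells and 7.16, 6.67 and 7.00 in Type-1 cells. Its IEL arrays were above its lymph node arrays and, as for Gpr52, IEL replicate 3 was the highest. The differences of Rabgap1l, 1.10 ± 0.34 against Naive-like cells (limma adjusted p = 0.10) and 1.13 ± 0.34 against Type-1 cells (limma adjusted p = 0.091), did not pass. The part of host gene RNA in the signal of the Gpr52 row was not tested.

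Ubac2, whose span holds Gpr18 and Gpr183, read 8.95, 9.51 and 9.68 in IELs, 8.43, 8.46 and 8.58 in Naive-like cells and 7.96, 7.86 and 8.88 in Type-1 cells. Ubac2 was thus highest in IELs, where Gpr18 was also highest and Gpr183 was lowest. It rose by 1.15 ± 0.28 in IELs against Type-1 cells (limma adjusted p = 0.035), a call that held only when IEL replicate 1 or Type-1 replicate 3 was the array left out (limma adjusted p up to 0.16, without IEL replicate 3), and differed by 0.89 ± 0.28 against Naive-like cells (limma adjusted p = 0.11). Cask, whose span holds Gpr34, differed by 0.75 ± 0.41 and Med12l, whose span holds Gpr171, by 0.04 ± 0.21 between IELs and Naive-like cells, and neither passed (limma adjusted p = 0.48 and 0.98). The IEL arrays of Cask, 4.62, 4.66 and 4.55, nevertheless lay above its Naive-like arrays, 3.58, 4.03 and 3.98. The part of host gene RNA in the rows of Gpr18, Gpr183, Gpr34 and Gpr171 was not tested.

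**Figure D3:**
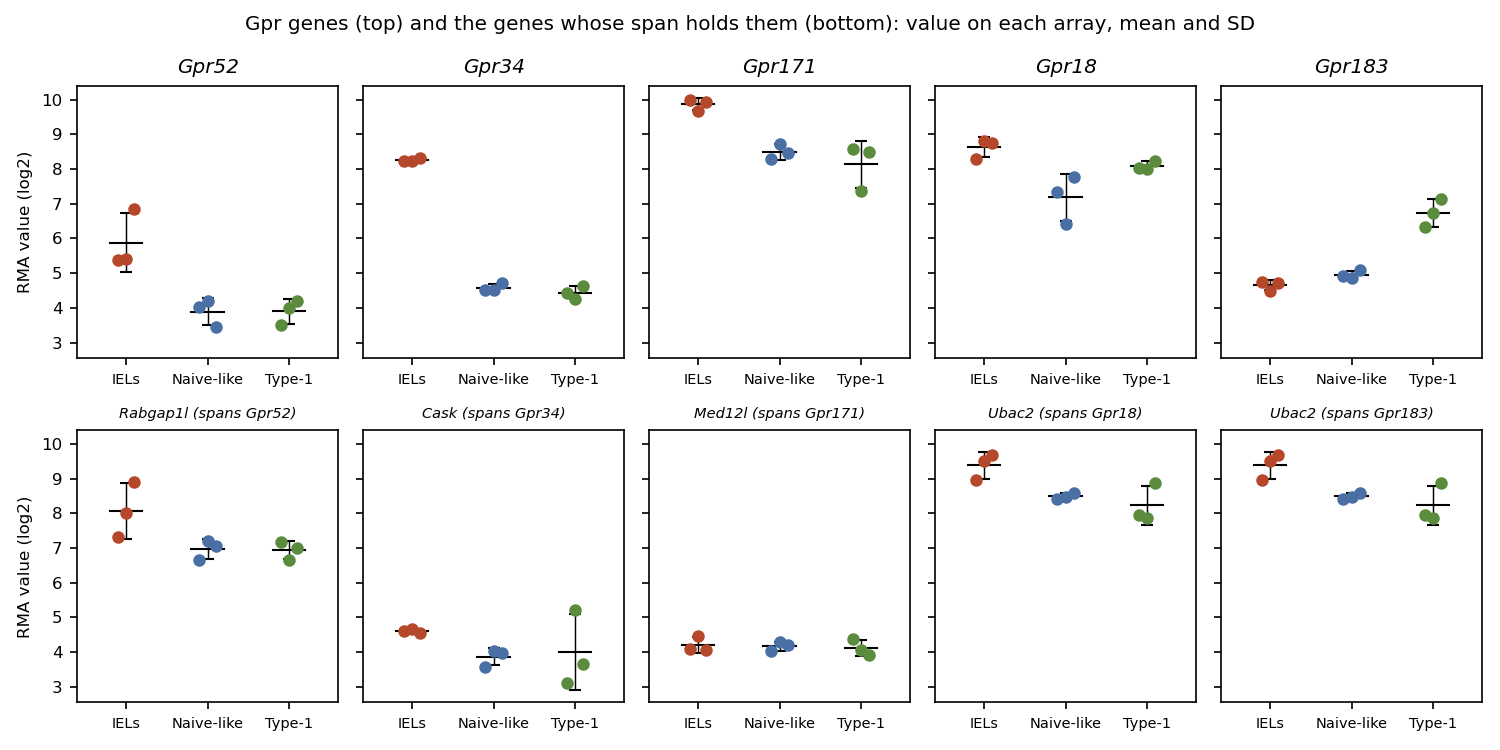
Log2 RMA value (vertical axis) by subset of 5 Gpr genes in the upper row and of the gene whose span holds each in the lower row; points are arrays, lines means and bars 1 SD (n = 3). Rabgap1l and Gpr52 are both highest on IEL replicate 3, at 8.91 and 6.85. Between IELs and Naive-like cells Med12l differs by 0.04 and Cask by 0.75, beside 1.37 for Gpr171 and 3.68 for Gpr34. The IEL arrays of Cask lie above its Naive-like arrays.

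Next to Gpr34, the orphan receptor Gpr82 had means of 2.36 in IELs, 2.00 in Naive-like and 2.17 in Type-1 cells, and no difference passed. Next to Gpr55, the membrane protein gene Itm2c rose by 0.97 ± 0.20 in IELs against Naive-like cells (limma adjusted p = 0.011) and by 1.11 ± 0.20 against Type-1 cells (limma adjusted p = 0.0051). The first of these was lost without IEL replicate 2 (0.91, limma adjusted p = 0.059) or Naive-like replicate 2 (0.88, limma adjusted p = 0.059). Next to Gpr52, Cacybp rose by 1.20 ± 0.21 against Naive-like cells (limma adjusted p = 0.0034) and by 0.81 ± 0.21 against Type-1 cells (limma adjusted p = 0.041), the latter holding only when Naive-like replicate 3 was the array left out (limma adjusted p up to 0.18, without IEL replicate 3). Of 20 neighbours and host genes, 5 passed in some comparison: Itm2c, Cacybp, Ubac2, and Gpr18 and Gpr183 as each other's neighbours. Gpr18 and Gpr183 were already among the 8 genes that passed, so their calls are not further results. Of all genes, 5.19% passed in IELs against Naive-like cells, 0.284% in Type-1 against Naive-like cells and 5.14% in IELs against Type-1 cells. Each of these shares is for a single comparison, whereas the 5 of 20 passed in any of the 3. The share of all genes that passed in any comparison was not counted and cannot be smaller than 5.19%.

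Among the 9 genes grouped as lymphocyte guidance and immune receptors, 4 rose and 1 fell in IELs against Naive-like cells, 1 was higher in Type-1 than in Naive-like cells, and 3 rose and 2 fell in IELs against Type-1 cells. These are 55.6%, 11.1% and 55.6% of the group, beside 5.19%, 0.284% and 5.14% of all genes. The group was drawn up with earlier results of these data known, so its shares are no test of guidance receptors as a class. The 3 members of this group that passed in no comparison were Gpr15, Gpr25 and Gpr141. Gpr15, which guides T cells to the large intestine, read 4.39, 3.96 and 3.90 in IELs, 4.67, 3.78 and 4.74 in Naive-like cells and 5.56, 4.10 and 5.98 in Type-1 cells. Type-1 replicate 2 lay among the arrays of the other subsets while the other Type-1 arrays lay above them. Its difference of -1.13 ± 0.42 between IELs and Type-1 cells did not pass (limma adjusted p = 0.18), and it was -1.69 without Type-1 replicate 2 (limma adjusted p = 0.0097), -0.75 without Type-1 replicate 3 (limma adjusted p = 0.35) and -0.96 without Type-1 replicate 1 (limma adjusted p = 0.40).

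Gpr25, a receptor related to Gpr15, read 4.57, 4.50 and 4.35 in IELs, 4.50, 4.39 and 4.15 in Naive-like cells and 5.06, 4.83 and 4.73 in Type-1 cells. The Type-1 arrays lay above all others, but the 0.53 ± 0.19 between Type-1 and Naive-like cells did not pass (limma adjusted p = 0.59). A second array row of Gpr25 read 3.88, 4.32 and 4.31 in IELs, 4.06, 4.32 and 4.10 in Naive-like cells and 4.17, 4.54 and 4.04 in Type-1 cells. On that row the Type-1 arrays overlapped those of both other subsets. Gpr141, an orphan receptor, was dim, with means of 2.80, 3.20 and 3.01 in IELs, Naive-like and Type-1 cells, and no difference passed.

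The proton-sensing receptors, which respond to acid outside the cell, gave no call for any of 3 measured members. Gpr65 read 8.21, 8.21 and 8.43 in IELs, 7.66, 8.31 and 7.85 in Naive-like cells and 7.41, 7.89 and 7.56 in Type-1 cells. Its IEL arrays lay above its Type-1 arrays, and that difference, 0.67 with a 95% interval from 0.18 to 1.15, did not pass over all genes (limma adjusted p = 0.13). Gpr132, which also responds to oxidised fatty acids, read 6.67, 7.10 and 7.10 in IELs, 6.05, 5.92 and 6.48 in Naive-like cells and 6.82, 6.18 and 6.92 in Type-1 cells. The IEL arrays of Gpr132 lay above the Naive-like ones by a mean of 0.80 ± 0.25, which did not pass (limma adjusted p = 0.10). Gpr4, best known from endothelium, had means of 4.59, 4.72 and 4.71, and all of its 95% intervals lay between -0.53 and 0.38.

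None of the 5 lipid and metabolite receptors passed in limma, and Gpr31b alone had an unadjusted p under 0.05. Gpr31b, known in mice as a receptor for lactate and pyruvate, had the largest difference among the uncalled genes in Type-1 against Naive-like cells. It read 4.88, 4.76 and 4.70 in IELs, 4.67, 4.84 and 4.32 in Naive-like cells and 7.41, 5.09 and 4.98 in Type-1 cells. The Type-1 arrays lay above all others, but 1 array, replicate 1, held most of the distance. The difference from Naive-like cells was 1.22 ± 0.50 (limma adjusted p = 0.69) and 0.43 without Type-1 replicate 1. RefSeq also lists the copies Gpr31a and Gpr31c, so the source of this signal is uncertain.

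Gpr146, an orphan receptor studied in liver cholesterol metabolism, came closest to the threshold without passing. Its values were 5.41, 6.06 and 6.15 in IELs, 6.62, 6.57 and 7.04 in Naive-like cells and 6.01, 5.91 and 6.03 in Type-1 cells. The Naive-like arrays lay above those of both other subsets. The difference between IELs and Naive-like cells was -0.87 ± 0.23 (limma adjusted p = 0.051) and that between Type-1 and Naive-like cells -0.76 ± 0.23 (limma adjusted p = 0.43). With the replicate number as a block, the first reached an adjusted p of 0.034 in limma.

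The 6 Gpr-named membrane proteins that are not typical receptors gave no call, and none had an unadjusted p under 0.05 in limma. Among them Gpr107 and Gpr108, proteins of the Golgi, had means of 6.38 and 7.84 in IELs, 6.24 and 7.79 in Naive-like cells and 6.05 and 7.50 in Type-1 cells. The intervals for Gpr107 ran from -0.62 to 0.75 over the 3 comparisons and those for Gpr108 from -0.97 to 1.02. Gpr180 had means of 5.53, 5.67 and 5.87, with intervals from -1.03 to 0.90.

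The remaining groups held brain and retina receptors and gave no call. Gpr27, of the brain-enriched SREB family, had means of 5.20 in IELs, 4.87 in Naive-like and 5.05 in Type-1 cells, and the largest of its differences was 0.33 ± 0.21. Gpr85 of the same family went the other way in IELs against Naive-like cells, at -0.48 ± 0.22 with no overlap of arrays (limma adjusted p = 0.33), and was the 1 of the 3 measured SREB genes with an unadjusted p under 0.05. Gpr6, which raises cAMP without a ligand, differed by -0.11 ± 0.23 and the retinal class C receptor Gpr179 by -0.17 ± 0.24 between IELs and Naive-like cells. A further 34 genes stood in no group, and of these Gpr160 and Gpr52 passed.

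The plot of the 22 named genes sets the calls beside the uncalled differences. For the 56 genes that passed nowhere, differences ran from -0.87 to 0.80 in IELs against Naive-like cells, from -0.76 to 1.22 in Type-1 against Naive-like cells and from -1.13 to 0.67 in IELs against Type-1 cells. The 95% interval lay within 1 log2 unit of 0 for 49, 50 and 50 of them, so larger changes of those genes lay outside their intervals. At an unadjusted p under 0.05 limma had 4, 3 and 3 of the 56 genes, beside 3150, 1437 and 3609 of all 22180 genes. The 56 leave out the Gpr genes that passed, whereas the counts over all genes include genes that passed. The shares are therefore not alike and show no shortage of differences among the Gpr genes.

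**Figure D4:**
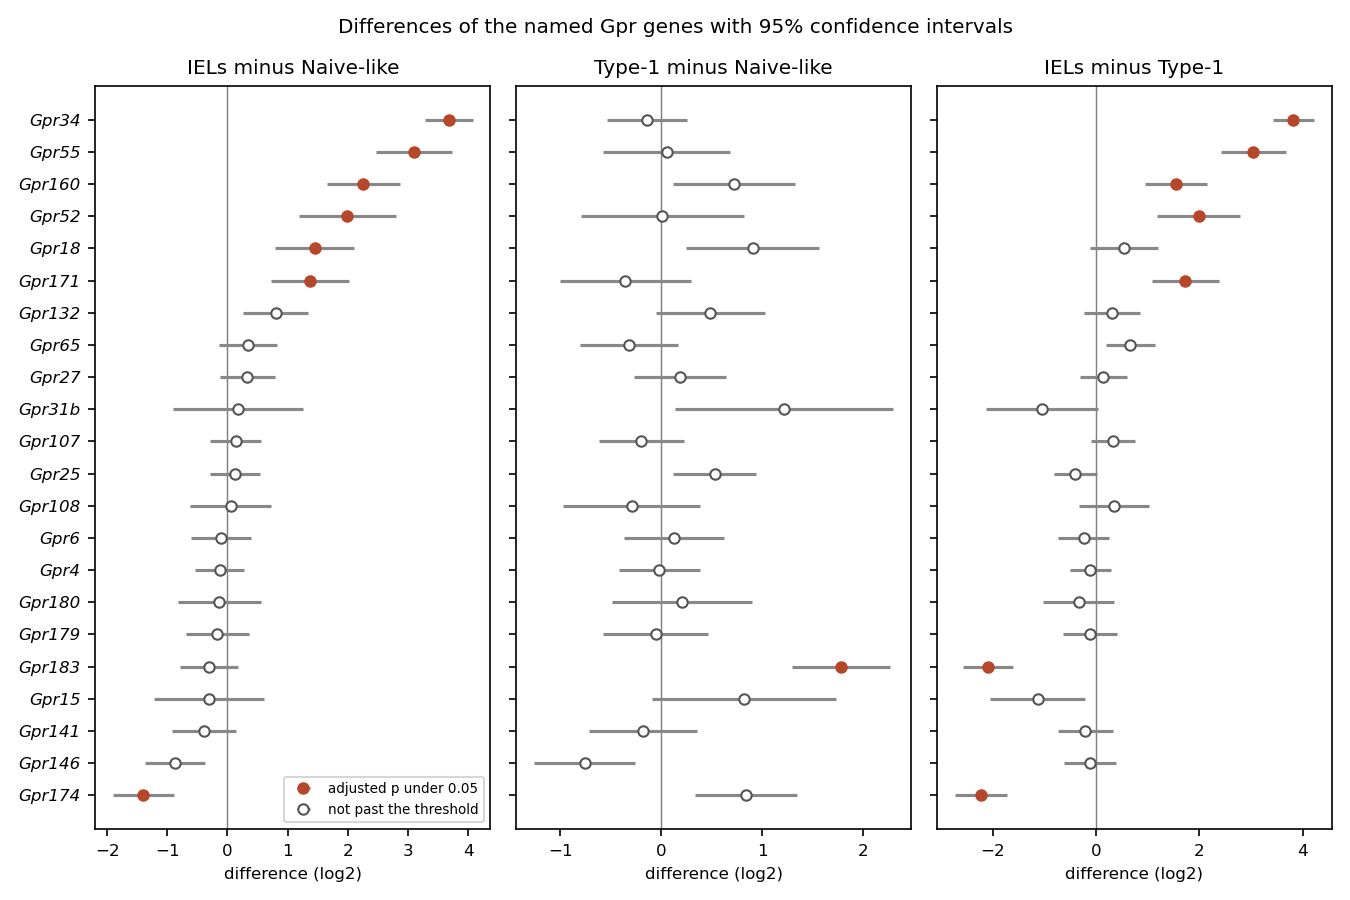
Difference between subsets (horizontal axis, log2) with its 95% interval for the 22 named Gpr genes, 1 panel per comparison; filled points passed an adjusted p of 0.05. Gpr34 and Gpr55 lie beyond 3 in both comparisons with IELs, Gpr183 alone is filled in the lymph node comparison, and Gpr31b and Gpr15 have the widest intervals among the uncalled genes.

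Of the 64 genes, 30 had a mean below 4.10, the 40th percentile of all genes, and no member of this dim set passed. Their differences ran from -0.48 to 0.46. RMA compresses the differences of dim genes, and the files carry no detection calls, so a low value does not show that a receptor is absent. By mean, 29 genes were highest in Type-1 cells, 18 in Naive-like cells and 17 in IELs, although 6 of the 8 genes that passed were highest in IELs. This split was not counted over all genes. By sign alone, 12151 of all 22180 genes were higher in Type-1 than in Naive-like cells, and 12027 were lower in IELs than in Type-1 cells.

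The genes that act behind these receptors were described through 3 lists. For reference, 5.19% of all 22180 genes passed in IELs against Naive-like cells, 0.284% in Type-1 against Naive-like cells and 5.14% in IELs against Type-1 cells. In the same order, limma had 3150, 1437 and 3609 of the 22180 genes at an unadjusted p under 0.05. Of 33 G protein subunits and chaperones, 1 rose in IELs against Naive-like cells, none passed within the lymph node and 2 rose in IELs against Type-1 cells, with list medians of 0.07, -0.02 and 0.13. These were the γ subunit gene Gng2 (0.89 ± 0.22, limma adjusted p = 0.032) against Naive-like cells, and the β subunit gene Gnb4 (1.40 ± 0.32, limma adjusted p = 0.024) and the γ subunit gene Gngt2 (0.92 ± 0.20, limma adjusted p = 0.020) against Type-1 cells. All 3 calls were lost when single arrays were left out. For Gng2 these were IEL replicates 1, 2 and 3 and Naive-like replicates 1 and 3 (0.78 to 0.94, limma adjusted p from 0.050 to 0.13). For Gnb4 they were IEL replicates 2 and 3 and Type-1 replicates 2 and 3 (1.17 to 1.39, limma adjusted p from 0.053 to 0.12), and for Gngt2 IEL replicate 1 and Type-1 replicates 1 and 3 (0.77 to 0.86, limma adjusted p from 0.053 to 0.075). At an unadjusted p under 0.05 limma had 6 genes of this list in IELs against Naive-like cells, 2 within the lymph node and 8 in IELs against Type-1 cells.

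Of 13 receptor kinases and arrestins, the same 3 rose in IELs against either lymph node subset and none fell, while the list medians were -0.10 and -0.03, and none passed between Type-1 and Naive-like cells (median -0.16, with 1 gene at an unadjusted p under 0.05 in limma). Arrdc3, an arrestin-domain protein, read 9.59, 10.10 and 10.04 in IELs, 6.71, 6.79 and 6.93 in Naive-like cells and 4.34, 6.57 and 7.36 in Type-1 cells. It rose by 3.10 ± 0.56 against Naive-like cells (limma adjusted p = 0.005) and by 3.82 ± 0.56 against Type-1 cells (limma adjusted p = 0.0013). Its relative Arrdc4 rose by 2.55 ± 0.23 and 2.71 ± 0.23 (limma adjusted p = 2.3e-05 and 1.8e-05). The receptor kinase gene Grk3 rose by 1.48 ± 0.27 and 1.46 ± 0.27 (limma adjusted p = 0.006 and 0.007).

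Of 21 genes that make or degrade ligands of these receptors, none passed in any comparison, and their differences ran from -0.56 to 0.64. At an unadjusted p under 0.05 limma had 1 of them in IELs against Naive-like cells, 0 within the lymph node and 4 in IELs against Type-1 cells.

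Markers of epithelial cells moved with the IELs. Of 30 intestinal epithelium markers, 19 rose in IELs against Naive-like cells and 17 against Type-1 cells, and their summed level on the log2 scale was 11.15, 11.76 and 10.86 on the IEL arrays, beside 9.15 to 9.30 and 9.20 to 9.35 in the lymph node subsets. On the same 3 IEL arrays Gpr55 read 7.01, 8.05 and 8.12, and on each of them the sum was above that of every lymph node array. Of 19 myeloid and dendritic cell markers, Itgax and Itgam rose, with Itgax at a mean of 9.29 in IELs against 4.42 and 5.34, while Csf1r and Cd14 had IEL means of 3.87 and 2.64 and differed by -0.07 each from Naive-like cells. The summed level of that list was 10.8 on all IEL arrays, 9.66 to 9.91 in Naive-like and 9.72 to 9.92 in Type-1 cells. These sums add unlogged levels, so the brightest markers weigh most. By sign, 13 of the 19 were lower in IELs than in Naive-like cells (median -0.07) and 11 lower than in Type-1 cells (median -0.12). Of 13 mast cell and granulocyte markers, Kit rose, with a mean of 9.94 against 6.07 and 5.50, and 12 of the 13 were below 4.10 in IELs, the list summing to 9.16 to 10.8 in IELs, 7.42 to 7.78 in Naive-like and 7.32 to 7.59 in Type-1 cells. Of 11 B cell markers, Ighm fell by 1.25 in IELs against Naive-like cells, and the summed level was 10.2 to 10.7 in IELs, 11.5 to 11.8 in Naive-like and 11.0 to 11.3 in Type-1 cells. The part of other cell types in the differences of the 8 genes was not tested.

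**Figure D5:**
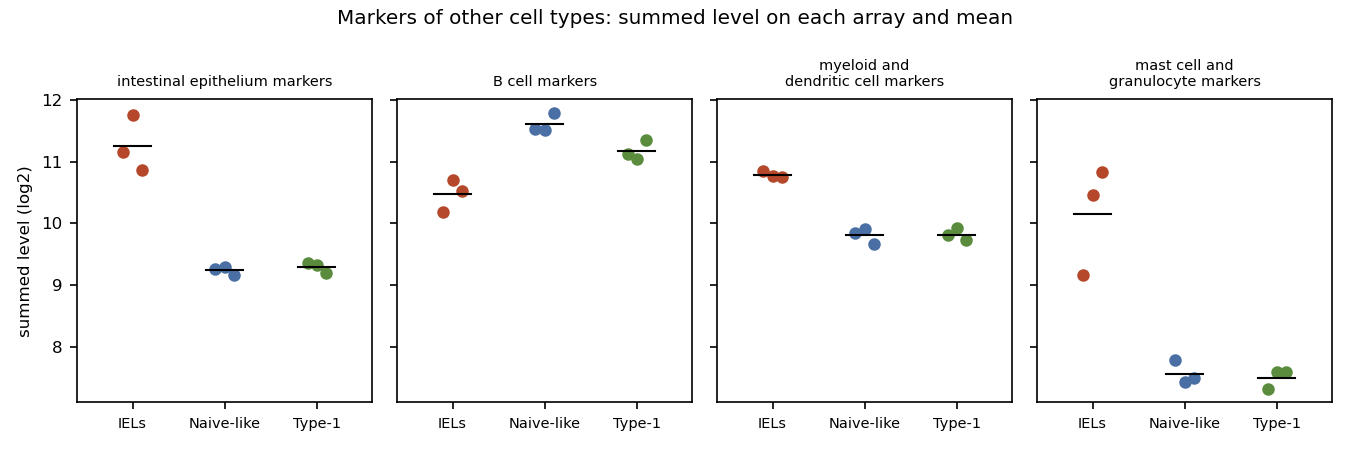
Summed level (vertical axis, log2) of 4 lists of markers of other cell types on each array, by subset; points are arrays and lines are means (n = 3). The epithelial sum is 10.86 to 11.76 in IELs and at most 9.35 in the lymph node subsets, and the B cell sum is lowest in IELs. The sums add unlogged levels, so the brightest markers weigh most.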

How the data were processed

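The authors deposited log2 values for 41345 array rows, which per the submitters' processing notes were made with RMA in oligo; the sources used here state no versions. RMA normalizes arrays to each other and shrinks differences of dim genes. Values ran from 0.785 to 13.5, and array medians from 4.25 to 4.43, and the precision is limited by the number of arrays. Rows were named by the platform annotation and matched to RefSeq (GRCm38.p6) by Entrez identifier, and groups came from the titles.

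Tests used R 4.3.3 and limma 3.58.1 (1 mean per subset, all 9 arrays, eBayes, two-sided, threshold 0.05), which was tested on simulated data first; tables and plots used Python 3.11.15, pandas 2.3.3, numpy 2.4.6 and matplotlib 3.10.9. The genes and lists were chosen with earlier results of these data known. Named were genes that passed, genes without overlap and a difference of at least 1, the 10 of highest mean, all guidance and proton-sensing receptors, the highest of each other role list, and up to 4 passing genes per pathway list and comparison; neighbours, hosts and markers were added. Deviations from the subset means of same-numbered arrays correlated by 0.16, 0.10 and 0.30 between IELs and Type-1 cells, all over 0.1. Other same-numbered pairs gave -0.01 to 0.38, not all over 0.1. Arrays of unlike number gave -0.29 to 0.21, which reaches above 0.16 and 0.10, so these values do not establish that the numbers pair arrays. The replicate 3 pairs gave 0.23 (IELs and Naive-like), 0.30 (IELs and Type-1) and 0.38 (Naive-like and Type-1), above every pair of unlike number. What the replicate 3 arrays share was not tested. The main tests used no pairing, and results with the replicate number as a block are given as an alternative. Alternatives were scaling, filters, row choice, spread, weights, blocks and arrays left out. Protein sequences were not used, and 1 further pathway list is not reported here.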

Additional observations from a re-analysis of the deposited data

How the results depend on the processing

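Of 15 calls of a gene in a comparison, 11 passed in all 21 alternatives and 4 were lost in some, and 0 of the 15 called differences changed sign, whereas uncalled differences near 0 between Type-1 and Naive-like cells did for Gpr52, Gpr55 and Gpr171. Leaving out 1 array gave 5 to 7 genes called in IELs against Naive-like cells, 1 in Type-1 against Naive-like, 7 to 8 in IELs against Type-1 and 7 to 9 by the F test. The description of replicate 3 of each subset carries a code that the others lack. With only the other 6 arrays, limma called 0 genes in Type-1 against Naive-like cells (5 at an unadjusted p under 0.05), where Gpr183 differed by 1.64 (limma adjusted p = 0.12); Gpr18 (1.68, limma adjusted p = 0.050) and both calls of Gpr171 (1.32 and 1.86, limma adjusted p = 0.20 and 0.062) were also lost, and the cause was not tested beyond the smaller number of arrays. Gpr146 passed in IELs against Naive-like cells in 7 alternatives and Gpr132 in 3. With the replicate number as a block, 8, 1 and 7 genes were called in the 3 comparisons and 8 by the F test. In IELs against Type-1 cells the block changed no call of the 64 genes, while of the markers Ighm passed and Krt20 no longer did; against Naive-like cells Gpr146 and Ubac2 passed and Itgam no longer did. Among receptor-pathway genes, the calls of Grk3 against both lymph node subsets and those of Gnb4, Gng2 and Gngt2 were lost with those 6 arrays. The calls of Gng2 and Gngt2 were also lost under repeated quantile normalization. Gng2 was lost with a trended and robust spread as well (limma adjusted p = 0.052). Gngt2 was lost under another normalization, cyclic loess, and with only the 2 subsets compared (limma adjusted p = 0.068 and 0.060). Dim genes limit what 3 arrays per subset can show.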
